A study of Arabidopsis thaliana with 18 samples.

Results

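The nuclear genes of light harvesting and the photosystems of Arabidopsis thaliana were followed through excess-light (EL) priming. The set was chosen by gene identity, without regard to measured values, and holds 47 of the 33052 nuclear loci counted by mRNA sequencing. It comprises 21 antenna genes (LHCA1 to LHCA6, and 15 LHCB genes of the LHCB1 to LHCB7 families), 12 genes of photosystem I (PSI) subunits, 9 genes of photosystem II (PSII) subunits and 5 genes of electron transport and the ATP synthase. All 47 passed a filter of more than 1 CPM (counts scaled to a fixed library total) in at least 3 of 12 libraries, as did 17986 loci in all, and no member had fewer than 92 counts in any library.

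Light harvesting complexes bind chlorophyll and pass absorbed light energy to the reaction centres, LHCB proteins mainly to PSII and LHCA proteins to PSI. PSII oxidises water, the cytochrome b6f complex and plastocyanin carry electrons to PSI, and the ATP synthase uses the resulting proton gradient. The reaction centre cores are encoded in the chloroplast, while the antenna and many peripheral subunits are encoded in the nucleus, and plants that acclimate to strong light typically reduce their antenna.

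All mRNA libraries came from wild-type (WT) Col-0 plants, 3 weeks old, grown under a 12 h photoperiod at 100 to 150 µmol photons m-2 s-1 and 20 °C, and true leaves 4 to 9 were taken. Naive plants given a triggering EL treatment (N+T) were compared with untreated naive plants (N), and plants primed by a week of recurring EL and then triggered (P+T) with primed plants not triggered (P), with 3 libraries in each group. EL was 1000 µmol photons m-2 s-1, and the paper describes 3 daily EL treatments. Leaf DNA methylation was measured in unstressed plants carrying a T-DNA insertion in STRS2, a single insertion line in the Col-0 background. It was also measured in unstressed WT plants, with 3 plants of each genotype. The DNA plants had the same age, leaf positions, photoperiod, growth light and temperature as the mRNA plants. The hour at which leaves were taken for RNA is not given in the sources used here. Bulk leaf RNA does not tell fewer cells of a type from less RNA per cell.

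Libraries held 3665503 to 33081543 counts, with the lowest total in N+T-r3 and the next lowest, 7647236, in N+T-r1. N-r3 and N+T-r3 were left out of the main tests, as in the paper. The paper judged them possible outliers because libraries did not cluster by treatment in a scaling plot. That choice was made on the same expression values, so the main p-values leave out the spread that these libraries add. N and N+T therefore rest on 2 libraries each, and the values of the omitted libraries are given beside the others. The leaf markers RBCS1A and RCA together held 1.5 to 3.0% of nuclear counts, and the summed level of the root markers PIN2 and COBL9 was between 0 and 0.188 CPM. Clock genes set some libraries apart. TOC1, an evening clock gene, had 46.8 normalised CPM in N-r3 and 16.8 in P-r3, against 94.5 to 154 in the other 10 libraries, and GI, another evening gene, had 17.5 in N-r3 and 95.7 in P-r3, against 166 to 281 in the other 10. Members of the antenna family are known clock outputs, and the part of these differences in the results was not tested. Here normalised CPM is CPM of nuclear counts without rRNA, divided by edgeR's TMM scaling factor.

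Per kilobase of exon, antenna transcripts were the most abundant. LHCB1.3, which encodes a major trimeric LHCII protein, averaged 13523 RPKM over 12 libraries. LHCB1.5, another LHCII gene, followed with 7522 RPKM, then PSBR, for a PSII subunit, with 5361 RPKM, LHCB3 with 4626 RPKM and LHCA4 with 4381 RPKM. The highest PSI gene was PSAL, for the subunit beside which LHCII docks in state transitions, with 3458 RPKM, in 10th place. The highest gene of electron transport was PETE2, the main plastocyanin gene, with 2629 RPKM, in 21st place. At the other end were LHCA6 with 124 RPKM, LHCB4.3 with 81.0 RPKM and LHCB7 with 20.7 RPKM, and the first of these encodes an antenna protein that links PSI to the NDH complex.

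The members held a smaller share of the transcriptome after triggering in naive plants. They took 6.04, 7.68 and 11.5% of nuclear counts in N+T-r1, N+T-r2 and N+T-r3, against 12.6, 13.8 and 22.5% in N-r1, N-r2 and N-r3. All 3 N+T libraries lay below all 3 N libraries. In primed plants the members took 9.83, 13.7 and 14.0% in P+T, against 13.5, 22.2 and 17.1% in P, and these groups overlapped.

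The mix of classes differed as well. Antenna counts divided by the counts of the other members, a ratio that needs no scaling factor, were 0.999, 1.01 and 1.11 in N+T, against 1.37, 1.34 and 1.44 in N. The ratio was 1.18, 1.26 and 1.21 in P+T, against 1.36, 1.76 and 1.74 in P. With all 12 libraries neither triggered group overlapped its untriggered group, and the 3 P+T libraries lay above the 3 N+T libraries. As a part of all nuclear counts, antenna genes took 3.02, 3.85 and 6.04% in N+T, against 7.28, 7.91 and 13.3% in N, and electron transport genes 0.49, 0.66 and 0.85% in N+T, against 0.69, 0.78 and 1.04% in N. The antenna groups did not overlap, while N+T-r3 lay above N-r1 and N-r2 for electron transport. Within the LHCB genes, the LHCB2 family took 2.13, 3.37 and 3.42% in N+T, against 3.91, 3.21 and 7.66% in N, which overlapped. It took 3.63, 3.83 and 4.41% in P+T, against 3.68, 8.92 and 11.1% in P, where P-r1 lay among the P+T libraries and the other P libraries stood well above them.

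**Figure D1:**
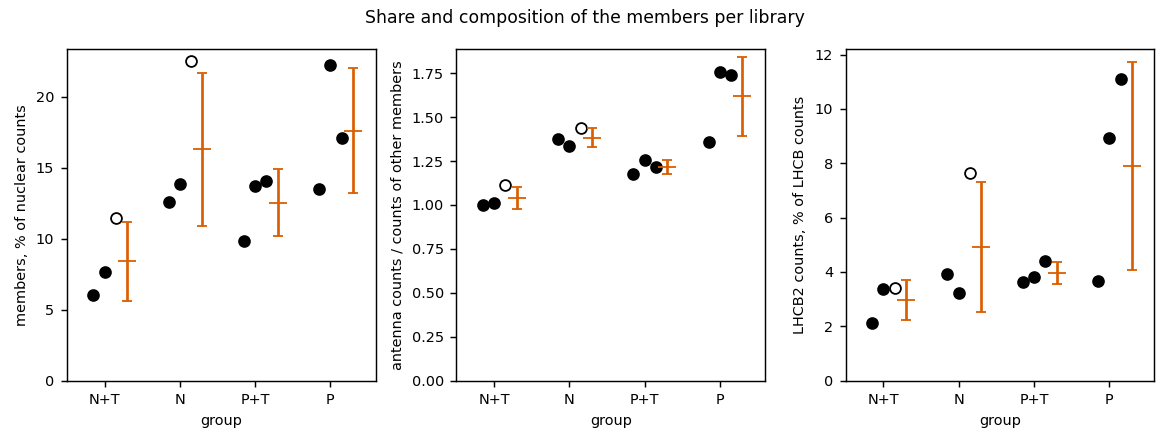
Share of nuclear counts held by the 47 members (%), antenna counts over counts of the other members, and LHCB2 counts as % of LHCB counts, for each library of N+T, N, P+T and P. Points are libraries, open points are N-r3 and N+T-r3, and orange bars are mean ± SD of 3 libraries. The middle ratio is 0.999 to 1.11 in N+T against 1.34 to 1.44 in N, and 1.18 to 1.26 in P+T against 1.36 to 1.76 in P.

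To ask how a triggering EL treatment changed each transcript in naive plants, N+T was compared with N. Antenna genes had the lowest median log2 fold change, -1.01 over 21 genes, followed by PSI with -0.60 over 12, PSII with -0.58 over 9 and electron transport with -0.17 over 5. The median over all 47 was -0.61, beside a median near 0 over all loci by construction of the scaling, and 46 of 47 had a negative value. Of the 47 members, 2 fell at an adjusted p below 0.05 in edgeR (quasi-likelihood test, adjusted over 17986 loci by Benjamini-Hochberg), LHCB1.2 and PSAN, and 0 rose. Across all loci 7.43% were called lower. At an unadjusted p below 0.05, 13 members were lower, 11 of them antenna genes, beside 17% of all loci.

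LHCB1.2, one of the LHCB1 genes for trimeric LHCII, lies on chromosome 1 at 10472280 to 10473502 on the minus strand (TAIR10, locus AT1G29910). It had 1497, 1322 and 4362 normalised CPM in N+T-r1, N+T-r2 and N+T-r3, against 4735, 4909 and 7263 in N-r1, N-r2 and N-r3. The N+T libraries lay below the N libraries, also with the omitted pair. In the 10 libraries tested, LHCB1.2 was 3.38-fold lower in N+T, with a log2 fold change of -1.76 ± 0.40 (SE) and an adjusted p of 0.027 by edgeR's quasi-likelihood test. PSAN, for the lumenal PSI subunit that helps plastocyanin dock, lies on chromosome 5 at 25628521 to 25629708 on the minus strand (AT5G64040). It had 689, 775 and 1567 normalised CPM in N+T, against 1577, 1813 and 3785 in N, and the groups did not overlap in the 12 libraries, with N-r1 only just above N+T-r3. PSAN was 2.29-fold lower in N+T by the same edgeR test, with a log2 fold change of -1.19 ± 0.30 (SE) and an adjusted p of 0.035. Over 19 alternative settings the adjusted p ran up to 0.18 for LHCB1.2, which kept its call in 14, and up to 0.199 for PSAN, which kept it in 12. With all 12 libraries, or without N-r1, N-r2, N+T-r1 or N+T-r2, 0 members were called, without P+T-r2 or P+T-r3 only LHCB1.2 was, and without P-r1 12 were, beside 11.8% of all loci. With library totals in place of scaling factors 11 were called, beside 10.6% of all loci, and with the replicate number as a block 6, beside 6.99%. By DESeq2, 13 members were called lower, 11 of them antenna genes, beside 10.7% of all loci.

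Other members are described by their values. Of the 47, 41 had both tested N+T libraries below both tested N libraries, 19 of them antenna, 12 PSI, 8 PSII and 2 electron transport, beside 37.5% of all loci, and 1 had both above, beside 33.3% of all loci. With all 12 libraries 9 members lay below, beside 12.1% of all loci, and these were PSAN and 8 antenna genes, LHCA4, LHCB1.1, LHCB1.2, LHCB1.3, LHCB1.4, LHCB1.5, LHCB2.3 and LHCB4.2. Without scaling factors 28 lay below, 17 antenna, 7 PSI, 3 PSII and 1 electron transport, beside 15.9% of all loci. LHCB2.3, an LHCII gene of the LHCB2 type that is phosphorylated in state transitions, had the lowest log2 fold change, -2.14 ± 0.82 (SE). Its values were 72.1, 98.2 and 213 normalised CPM in N+T, against 406, 351 and 1221 in N, and its adjusted p was 0.105 by edgeR's quasi-likelihood test. LHCB1.3, the most abundant member, had 7880, 8449 and 14917.5 normalised CPM in N+T, against 15586, 16725 and 27395 in N. These groups did not overlap either, and the adjusted p of LHCB1.3 was 0.084 by edgeR.

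Further antenna genes had similar patterns. LHCA4, for a PSI antenna protein with far-red absorbing chlorophylls, had 1912, 2553 and 4389 normalised CPM in N+T, against 4443, 4794 and 11720 in N, with a log2 fold change of -1.03. LHCB1.1, next to LHCB1.2 on chromosome 1, had 528, 644 and 1308 in N+T, against 1778, 1871 and 5661 in N, with a log2 fold change of -1.62. LHCB1.4 had 632, 1358 and 1250.1 in N+T, against 2589, 2687 and 5594 in N, with a log2 fold change of -1.40. In these 3 genes each N+T library was below each N library, but no adjusted p was below 0.05 by edgeR. LHCB5, for the minor antenna protein CP26, had 2504, 2823 and 5375 in N+T, against 4975, 5895 and 9270 in N, so that N+T-r3 lay above N-r1. LHCA6 had a log2 fold change of -0.22, and the other LHCA genes lay between -1.10 for LHCA1 and -0.60 for LHCA2.

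LHCB4.3, for a variant of the minor antenna protein CP29, was the 1 member with a positive value. It had 97.7, 178 and 115 normalised CPM in N+T, against 61.4, 67.5 and 161 in N. N-r3 lay among the N+T libraries, and the log2 fold change of 1.11 ± 0.49 (SE) without it had an adjusted p of 0.144 by edgeR. Its paralog LHCB4.2 had 407, 641 and 1100.0 normalised CPM in N+T, against 1307, 1248 and 3653 in N. LHCB4.3 thus made up 9.5 to 21.7% of the normalised CPM of the pair in N+T and 4.2 to 5.1% in N, with no overlap in 12 libraries. LHCB7, a rare antenna gene, had 13.7, 22.9 and 27.3 normalised CPM in N+T, against 20.2, 20.5 and 34.6 in N, which overlapped.

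Among PSI genes, the value nearest to 0 was that of PSAE2, for a stromal subunit that helps ferredoxin dock, with 384, 428 and 576 normalised CPM in N+T, against 506, 550.1 and 1016 in N, and a log2 fold change of -0.36. PSAL had 2169, 2453 and 3818 in N+T, against 3350, 3597 and 7662 in N, and a log2 fold change of -0.57. PSAD2, for another stromal subunit at the ferredoxin side, had 275, 376 and 591 in N+T, against 566, 504 and 1043 in N. In all 3 genes N+T-r3 was above at least 1 N library.

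Among PSII genes the oxygen-evolving complex subunits spread widely. PSBQ2 had 1170, 1427 and 2585 normalised CPM in N+T, against 2563, 2664 and 4079 in N, with N+T-r3 just above N-r1 and a log2 fold change of -0.99 ± 0.33 (SE) with an adjusted p of 0.069 by edgeR. Its paralog PSBQ1 had 992, 1219 and 1926 in N+T, against 1182, 1318 and 2516 in N, and a log2 fold change of -0.16. PSBQ1 made up 42.7 to 46.1% of the normalised CPM of the pair in N+T and 31.6 to 38.2% in N, with no overlap in 12 libraries. PSBR had 2343, 2728 and 3847 in N+T, against 2924, 3354 and 9032 in N, and PSBO2, for the manganese-stabilising protein, had 857, 963 and 1690 in N+T, against 1363, 1413 and 2246 in N. For both, N+T-r3 lay above N-r1 and N-r2.

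Electron transport had the class median nearest to 0. PETE2 had 2144, 2770.2 and 4044 normalised CPM in N+T, against 2725, 3099 and 5354 in N. PETE1, the minor plastocyanin gene, had 82.5, 127 and 144 in N+T, against 131, 128 and 166 in N. ATPC1, for the gamma subunit of the ATP synthase, had 1113, 1463 and 1977 in N+T, against 1350, 1497 and 1740 in N. The N+T and N libraries overlapped for all 3 genes, and their log2 fold changes were -0.23, -0.29 and -0.13 in that order.

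**Figure D2:**
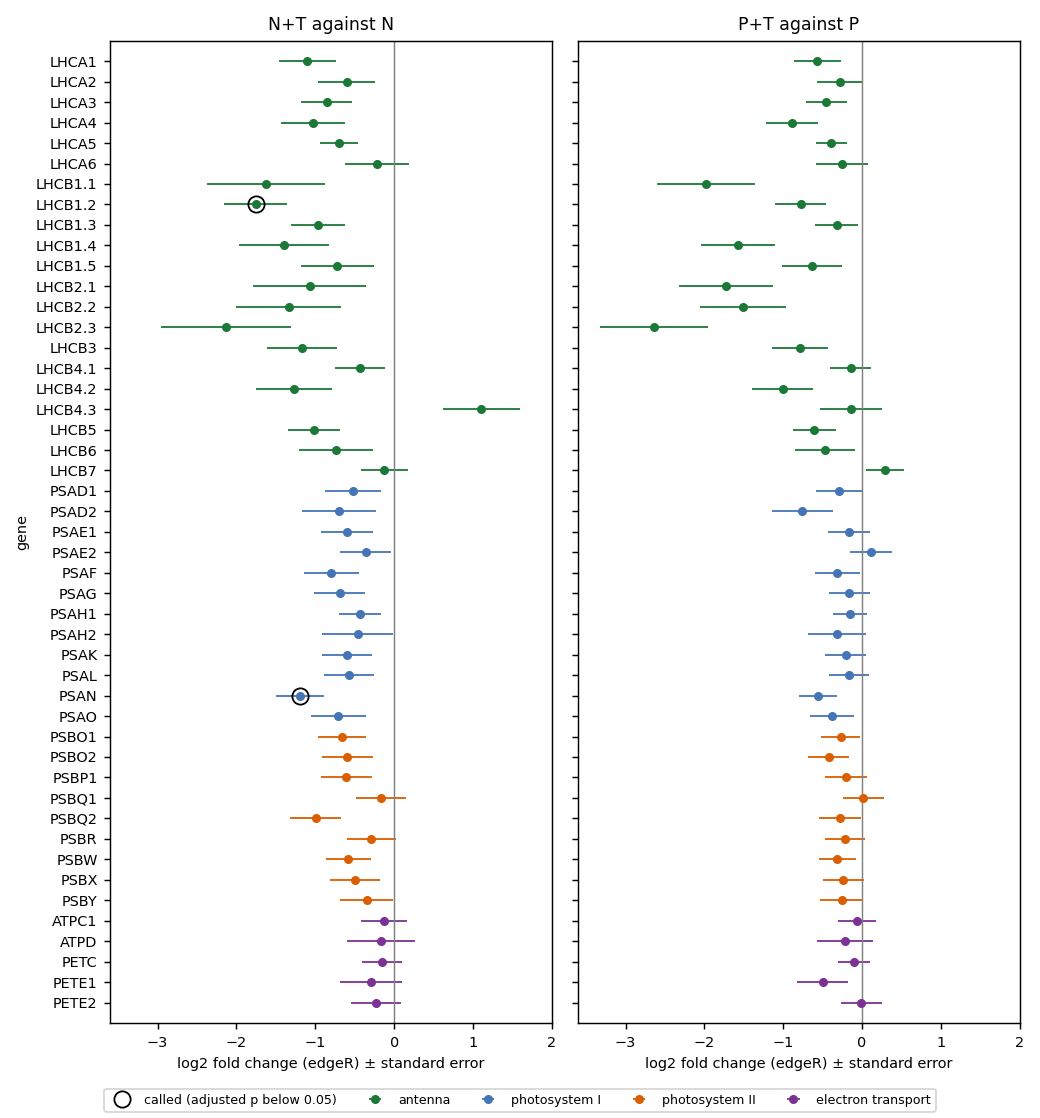
Log2 fold change ± SE (edgeR, 10 libraries) of each member in N+T against N (left) and P+T against P (right), coloured by class, with rings around members called at an adjusted p below 0.05. The rings mark LHCB1.2 and PSAN on the left, none are on the right, and LHCB2.3 has the lowest value in both panels, -2.14 and -2.65.

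The same question was asked of primed plants by comparing P+T with P. Here 0 members were called in either direction by edgeR's quasi-likelihood test, beside 2.44% of all loci called lower, 9 were lower at an unadjusted p below 0.05 (8 of them antenna), beside 12.3% of all loci, and DESeq2 called 6, all antenna, beside 6.91% of all loci. The median log2 fold change was -0.31 over the members, -0.60 for antenna, -0.25 for PSI, -0.26 for PSII and -0.10 for electron transport, and 44 of 47 were negative. P+T libraries lay below all P libraries for 2 members, LHCB1.4 and PSAN, beside 13.2% of all loci, and for 10, of which 9 were antenna genes, without scaling factors, beside 13.8%. The count of calls depended on P-r1. Without it 7.04% of all loci were called lower by edgeR, and 10 members among them, LHCB1.1, LHCB1.2, LHCB1.4, LHCB2.1, LHCB2.2, LHCB2.3, LHCB4.2, LHCA4, PSAD2 and PETE1.

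LHCB2.3 again had the lowest log2 fold change, -2.65 ± 0.69 (SE), with an adjusted p of 0.067 by edgeR. It had 154, 326 and 373.5 normalised CPM in P+T, against 333, 2435 and 2614 in P, so that P-r2 and P-r3 stood high and P-r1 lay within the P+T range. LHCB2.1 had 598, 1004 and 1153 in P+T, against 801, 4354 and 4003 in P, with a log2 fold change of -1.72 ± 0.60 (SE). LHCB1.2 had 2384, 3833 and 3884 in P+T, against 3604, 7856 and 5993 in P, overlapping at P-r1, with a log2 fold change of -0.78 ± 0.32 (SE) and an adjusted p of 0.200 by edgeR.

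PSAN had 1082, 1692 and 1658 normalised CPM in P+T, against 1789, 2723 and 2051 in P, and the groups did not overlap. Its log2 fold change was -0.56 ± 0.24 (SE) with an adjusted p of 0.225 by edgeR. LHCB1.3 had 13417, 16843 and 17834 in P+T, against 14774, 26960.4 and 18818 in P, which overlapped. LHCB4.3 had 136, 86.1 and 123 in P+T, against 68.4, 108 and 206 in P, and its log2 fold change of -0.14 changed sign when P-r3 was left out (0.40).

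The other classes had medians nearer to 0, with single genes such as PSAD2 at -0.76 and PETE1 at -0.50. PSAD2 was the lowest of PSI, with 555, 677 and 758 normalised CPM in P+T, against 509, 1738 and 1142 in P, and PSAE2 the highest, with 461, 733 and 741 in P+T, against 552, 805 and 446 in P. PSBO2 was the lowest of PSII, with 1018, 1459 and 1461 in P+T, against 1185.5, 2184 and 1949 in P, and PSBQ1 the highest, with 1354, 1853 and 1989 in P+T, against 1213, 2217 and 1743 in P. All 4 overlapped between the groups. PETE1 had 135, 142 and 160 in P+T, against 110, 294 and 218 in P, and PETE2 had 2858, 3922 and 4326 in P+T, against 2735, 4645 and 3875 in P, which overlapped too.

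**Figure D3:**
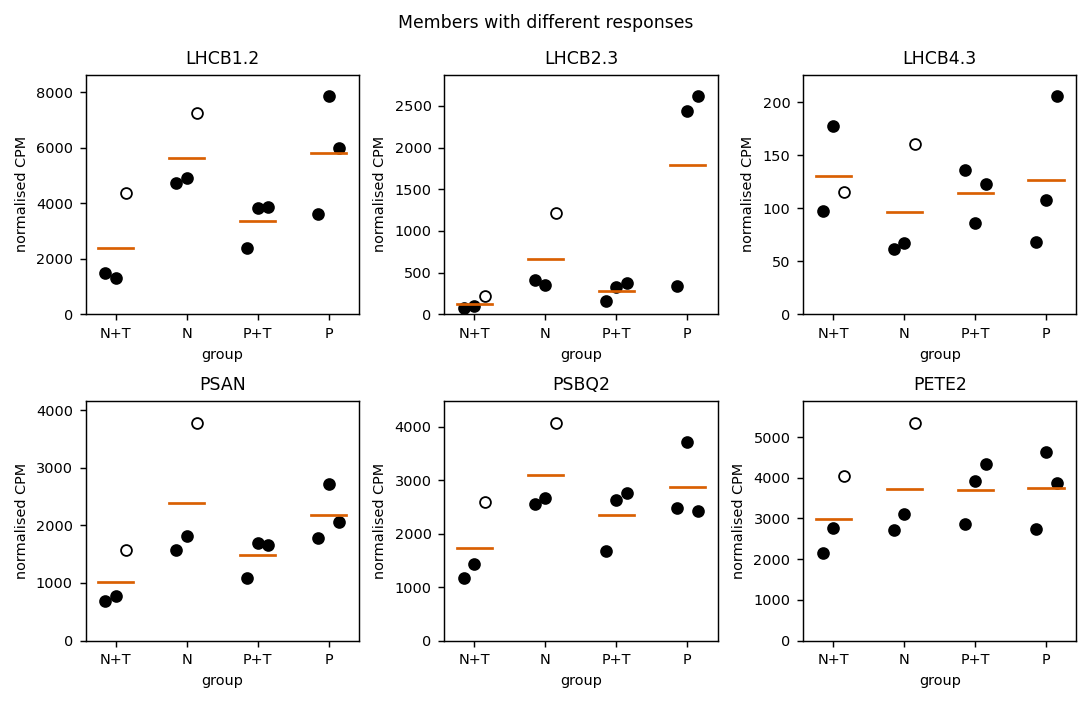
Normalised CPM of LHCB1.2, LHCB2.3, LHCB4.3, PSAN, PSBQ2 and PETE2 in each library of N+T, N, P+T and P, with each axis starting at 0. Points are libraries, open points are N-r3 and N+T-r3, and orange lines are means of 3. LHCB2.3 is 2435 and 2614 in P-r2 and P-r3 and at most 1221 elsewhere, while LHCB4.3 is highest in P-r3.

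P was compared with N to ask whether priming left a lasting change. By edgeR's quasi-likelihood test 0 members were called, as were 0 of all loci (0.0%), although 1576 loci passed an unadjusted p below 0.05, 5 members among them, all higher, beside 4.87% of all loci higher at that level. DESeq2 called 1 member, LHCB2.1, beside 1.17% of all loci called higher. In the 10 libraries tested the members had a median log2 fold change of 0.47, and all 47 were positive. The 3 P libraries lay above N-r1 and N-r2 for 12 members, beside 11.3% of all loci (17 without scaling factors, beside 7.48%), and for 0 once N-r3 was included, beside 3.91%. LHCB2.1 had 801, 4354 and 4003 normalised CPM in P, against 736, 693 and 4453 in N. LHCB2.3 had 333, 2435 and 2614 in P, against 406, 351 and 1221 in N. In both genes P-r1 resembled N-r1 and N-r2, and N-r3 lay apart from the other N libraries, toward P-r2 and P-r3. With all 12 libraries the median was 0.10 over the members, 0.24 for antenna, -0.08 for PSI, -0.03 for PSII and 0.15 for electron transport. Without P-r1 2.2% of all loci were called higher by edgeR, 5 members among them, LHCB1.1, LHCB2.1, LHCB2.2, LHCB2.3 and PSAD2.

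Triggered plants were compared directly between histories. In P+T against N+T the median log2 fold change was 0.81 over the members, 0.99 for antenna, 0.81 for PSI, 0.69 for PSII and 0.47 for electron transport, and 46 of 47 were positive. By edgeR's quasi-likelihood test 0 members were called, again 0.0% of all loci called higher, with 3595 loci at an unadjusted p below 0.05. Among the members 29 were higher at that level, 14 antenna, 9 PSI and 6 PSII, beside 8.91% of all loci. The lowest adjusted p was 0.198, for LHCB1.2, whose log2 fold change was 1.25 ± 0.37 (SE). DESeq2 called 7 members higher, LHCA1, LHCA3, LHCB1.2, LHCB1.3, LHCB4.2, LHCB5 and PSAN, beside 1.26% of all loci. The P+T libraries lay above N+T-r1 and N+T-r2 for 41 members, beside 22.8% of all loci, and for 0 once N+T-r3 was included, beside 4.72% of all loci, or 5 without scaling factors, beside 7.47%. With 12 libraries the median was 0.48. N+T-r3, with the fewest counts, was above both other N+T libraries in 45 of 47 members.

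Whether triggering acted differently in primed plants was tested by the interaction term. For 0 members was it called by edgeR, beside 1 locus of all 17986 called lower (0.00556%) and 0 called higher. By the same test 0 members had an unadjusted p below 0.05, beside 3006 of all 17986 loci. The median interaction was 0.27 on the log2 scale, positive in 37 of 47. For LHCB1.2 the interaction was 0.98 ± 0.50 (SE) with an adjusted p of 0.36 by edgeR's test, and for LHCB4.3 it was -1.25 ± 0.63 (SE) with an adjusted p of 0.35. A difference in the triggering effect between naive and primed plants was therefore not detected for any single member at this replication, and the comparisons N+T against N and P+T against N+T share the N+T libraries.

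**Figure D4:**
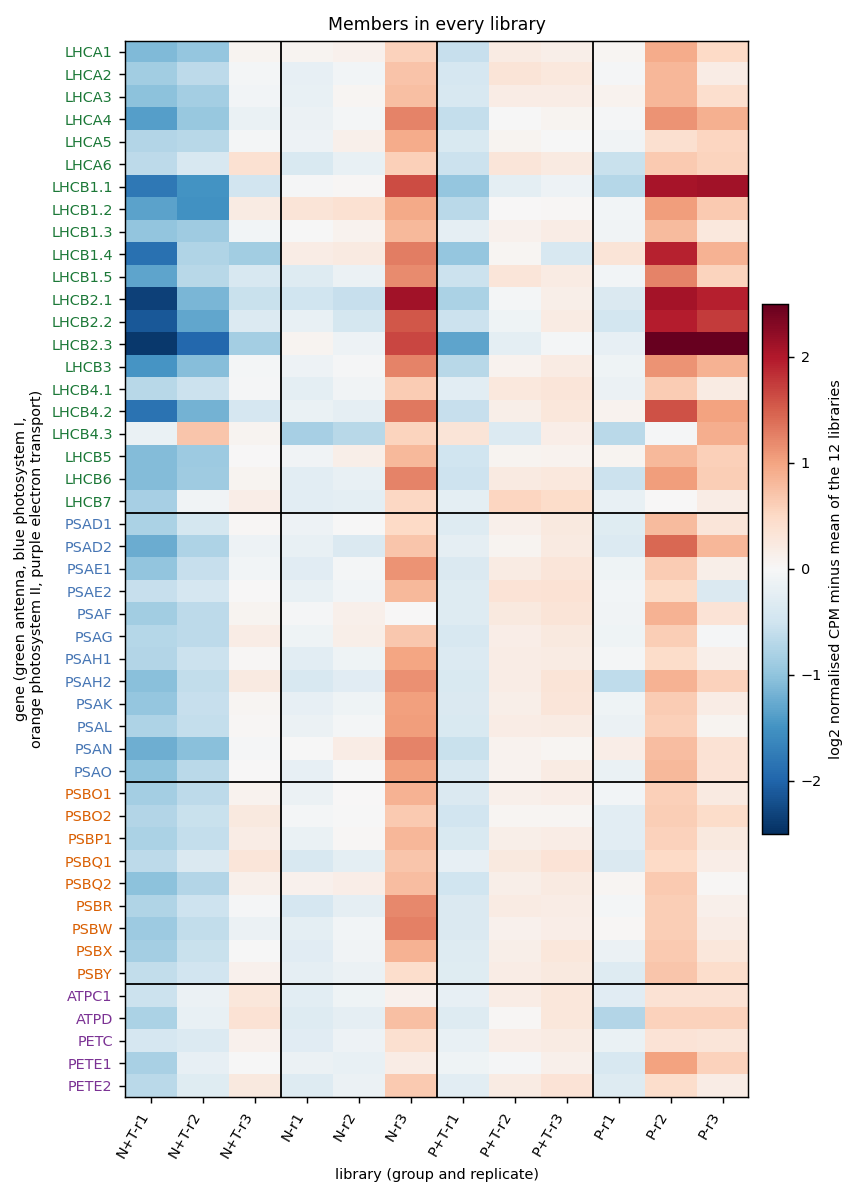
Heat map of the 47 members (down, coloured by class) in the 12 libraries (across, by group), shown as log2 normalised CPM minus the mean of the 12 libraries for that gene. N+T-r1, N+T-r2 and P+T-r1 are below the mean for nearly all members, N-r3, P-r2 and P-r3 are above it for nearly all, and the spread is widest in the LHCB2 genes, up to 36.3-fold for LHCB2.3.

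The members moved together across libraries, as a description over 12 libraries that share depth and scaling. The median Pearson correlation between log2 levels of 2 members was 0.92 within antenna, 0.92 within PSI, 0.93 within PSII and 0.89 within electron transport. Between classes it was 0.89 for antenna with PSI, 0.91 for antenna with PSII and 0.92 for PSI with PSII, and with electron transport it was 0.81 for antenna, 0.84 for PSI and 0.87 for PSII. PSAO, a PSI subunit near the LHCII docking site, had the highest correlation with the median of the other members, 0.99. LHCB4.3 had the lowest, 0.23, with LHCB7 next at 0.71. The ratio of the highest to the lowest library was 36.3 for LHCB2.3 and 21.6 for LHCB2.1, but 1.8 for PETC, the Rieske protein gene of cytochrome b6f.

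Other pairs of related genes differed in whether their shares moved. LHCB2.3 made up 20.5 to 24.5% of LHCB2.3 and LHCB2.1 in P+T, against 29.4 to 39.5% in P, with no overlap, and 17.3 to 25.9% in N+T, against 21.5 to 35.5% in N, with overlap. PSBO1 made up 77.7 to 78.6% of PSBO1 and PSBO2 in N+T, against 78.7 to 81.9% in N, close together but without overlap, and 80.7 to 81.2% in P+T, against 77.1 to 81.9% in P, with overlap. PSAH1 made up 48.8 to 57.1% of PSAH1 and PSAH2 in N+T, against 49.5 to 54.9% in N, which overlapped. LHCB2.1 and LHCB2.2 share long stretches of sequence. Of their 64-base words, 81.5% and 77.04% are found nowhere else in the genome or in the transcripts of the members. Their split is therefore less certain than that of LHCB2.3 or PSAN, at 100% each. Shares below 100% were also found for LHCB1.1 (86.5%), LHCB1.5 (88.1%), LHCB1.3 (89.3%), LHCB1.4 (90.6%), LHCB1.2 (94.3%) and LHCA2 (94.6%).

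Of 24 other genes of photosynthesis, all tested, 1 rose in N+T against N by edgeR's test, FD1, and 0 fell. FD1 encodes a minor leaf ferredoxin. It had 880.1, 1392 and 1537 normalised CPM in N+T, against 231, 215 and 356 in N, and 1019, 958 and 1050.2 in P+T, against 241, 266 and 296 in P, and was called higher in both triggering comparisons. The median log2 fold change of the 24 was -0.37 for triggering in naive plants and -0.13 in primed plants. Of 5 regulators of nuclear photosynthesis genes, 4 were tested and 0 were called. GLK1, a transcription factor that activates antenna and chlorophyll synthesis genes, had 106, 198 and 244 normalised CPM in N+T, against 280, 265 and 599 in N. HY5, another of the 4, went the other way, with 21.5, 19.6 and 23.5 in N+T, against 5.47, 7.09 and 2.97 in N. Their adjusted p was 0.163 for GLK1 and 0.084 for HY5 by edgeR's test. Of the 4, 2 had a negative and 2 a positive log2 fold change in N+T against N. Of 5 EL marker genes, 4 were tested and 2 rose in N+T against N, APX2 and ZAT12, beside 1392 of 17986 loci called higher. APX2 was low, with 8.77, 1.05 and 13.1 normalised CPM in N+T, against 0 in each N library. ZAT12 had 118, 23.4 and 7.13 in N+T, against 1.70, 1.37 and 16.2 in N, so that N+T-r3 lay below N-r3. In P+T against P 0 of the EL markers were called, and of the 4 tested 3 had a positive and 1 a negative log2 fold change. APX2 had 3.52, 6.13 and 1.68 normalised CPM in P+T, against 0.22, 0 and 0.064 in P, without overlap. Its adjusted p there was 0.0506 by edgeR's test.

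The 250 bases before the annotated start of each member were searched on both strands for 5 motifs, read from the RefSeq TAIR10.1 assembly. The CCAATC motif, which GLK factors have been reported to bind, was present in 14 of 47 members (29.8%), 10 of 21 antenna, 0 of 12 PSI, 1 of 9 PSII and 3 of 5 electron transport genes, against 10.2% of 27443 protein-coding genes. The G-box CACGTG was in 10 members (21.3%), against 6.49% of all. The I-box GATAAG was in 11 (23.4%), against 12.3% of all. The CCA1-binding site AAAAATCT was in 5 (10.6%), against 6.69% of all, and the evening element AAAATATCT in 2 (4.26%), against 2.36% of all. None of the 5 motifs lies within another. Windows that reach into another annotated gene were kept in these counts, for members and for all genes alike. Of the G-box members these were LHCB6, LHCB7, PSAE2, PSAH2, PSBQ1 and ATPD. Of the CCAATC members they were LHCA1, LHCB4.2, ATPD and PETE2. The promoters shown are those of LHCB1.2, which is 1 of the 2 members called lower in N+T, its abundant neighbour LHCB1.3, and LHCB2.1 and LHCB2.2, which varied most along with LHCB2.3. Capitals mark matches to the 5 motifs, and each run ends at the base before the annotated start.
LHCB1.2, chr1:10473503-10473752, minus strand: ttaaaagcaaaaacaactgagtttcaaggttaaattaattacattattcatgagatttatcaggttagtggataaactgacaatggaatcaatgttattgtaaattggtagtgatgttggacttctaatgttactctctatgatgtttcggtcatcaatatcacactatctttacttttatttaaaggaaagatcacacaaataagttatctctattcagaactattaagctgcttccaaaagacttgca
LHCB1.3, chr1:10477635-10477884, plus strand: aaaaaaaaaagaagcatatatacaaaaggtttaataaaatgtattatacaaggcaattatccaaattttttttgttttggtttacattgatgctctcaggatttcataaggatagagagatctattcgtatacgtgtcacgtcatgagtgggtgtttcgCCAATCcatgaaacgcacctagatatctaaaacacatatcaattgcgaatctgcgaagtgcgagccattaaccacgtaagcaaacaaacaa
LHCB2.1, chr2:1824481-1824730, minus strand: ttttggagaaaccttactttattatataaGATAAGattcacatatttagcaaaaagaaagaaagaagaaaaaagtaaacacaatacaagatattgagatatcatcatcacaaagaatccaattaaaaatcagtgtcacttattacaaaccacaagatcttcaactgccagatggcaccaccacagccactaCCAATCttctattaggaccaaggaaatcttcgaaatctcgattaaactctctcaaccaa
LHCB2.2, chr2:1800473-1800722, minus strand: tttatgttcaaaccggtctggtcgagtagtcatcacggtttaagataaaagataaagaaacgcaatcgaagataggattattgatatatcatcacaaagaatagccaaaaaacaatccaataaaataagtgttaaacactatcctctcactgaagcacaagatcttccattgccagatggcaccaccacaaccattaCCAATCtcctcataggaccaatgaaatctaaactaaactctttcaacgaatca

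PSAN, the other member called lower, holds the CCA1-binding site on the opposite strand, beginning 34 bases before its start, and its window reaches into a neighbouring gene and is not shown. The LHCB1.2 window holds none of the 5 motifs, while LHCB1.3 holds CCAATC beginning 91 bases before its start. The stretch between the annotated start of LHCB1.2 (10473502) and its coding region (from 10473246) was not searched. In the LHCB2 genes CCAATC begins 59 bases before the start in LHCB2.1, 53 in LHCB2.2 and 54 in LHCB2.3, and LHCB2.3 has a G-box beginning 88 bases before it. For LHCB2.3 the annotated start is also the first base of its coding region. A match is a description of the letters only.

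Gene body CG methylation of these genes was low in leaf DNA. The CG level of a gene body, methylated calls as % of calls over cytosines read at least 4 times, had a median of 0.537% in strs2 and 0.538% in WT over the 47 members, and the WT median over 32021 loci was 2.71%. In WT, 37 of 47 members were below 5%, as were 54.9% of all loci, and the range was 0.243% in LHCB4.3 to 33.7% in LHCA2. Between strs2 and WT, 1 member was called, higher in strs2, by limma with Benjamini-Hochberg adjustment over all loci, beside 2.84% of loci called higher and 3.08% called lower. That was LHCA1, for a PSI antenna protein, on chromosome 3 at 20339504 to 20341176 (AT3G54890). Its body had 10.4, 11.5 and 10.97% CG methylation in the strs2 plants, against 6.56, 5.65 and 5.88% in the WT plants, from 483 to 834 calls per plant. The strs2 plants all lay above the WT plants, by 4.90 percentage points on average, with an adjusted p of 0.015 by limma. The call did not hold without strs2-r2, strs2-r3 or WT-r3, or with the replicate number as a block.

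LHCB1.2, the antenna gene lower in N+T, had 17.2, 17.3 and 20.3% gene body CG methylation in strs2, against 23.3, 22.1 and 22.8% in WT, and its adjusted p was 0.096 by limma. In the 1 kb before the start, 28 of 47 members were below 5% CG methylation in WT, as were 68.4% of all loci. The WT median there was 0.754% over the members and 0.604% over all loci. PSAL was the 1 member called, with 15.3, 11.8 and 9.78% in strs2, against 28.1, 30.6 and 22.0% in WT. Of all loci, 2.08% were called higher and 2.06% lower in this region. LHCA3 was the most methylated there, with 46.9, 66.3 and 69.8% in strs2, against 74.8, 76.1 and 68.0% in WT, and the groups overlapped. No mRNA library of strs2 was analysed here.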

How the data were processed

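Poly(A) RNA libraries were prepared with a stranded kit, one for each of 12 leaf samples, and the deposited counts per locus were made by the authors from unique sense-strand reads, aligned to TAIR10 with Subread 1.6.2 and counted over the whole locus span, introns included, with featureCounts. RPKM here divides normalised CPM by annotated exon length. Organellar and rRNA loci were removed, and loci above 1 CPM in at least 3 of 12 libraries were kept. Counts were tested with edgeR 4.0.16 (quasi-likelihood, TMM, 1 mean per group, 10 libraries, FDR below 0.05), without N-r3 and N+T-r3 as in the study. DESeq2 1.42.0, all 12 libraries, library totals alone, a replicate block, other filters and leaving out each library were alternatives. P-values measure the spread between plants. For methylation, the authors mapped bisulfite reads with Bismark 0.14.5 and deposited counts of methylated and unmethylated reads per cytosine. Levels were pooled per gene body (at least 20 CG calls in each plant), arcsine square root transformed and tested with limma 3.58.1. Genome coordinates are those of the count tables, 1-based. Statistical code was tested on simulated data. Every member was eligible for naming, and those given in each library were members called in a contrast, the most abundant of each class, and the highest and lowest fold change of each class in both triggering contrasts; others were added after their values were seen. Members, lists and tests were chosen with earlier results of these data known. No 2 libraries of the same group differed by less than sampling noise (chi-square per degree of freedom 21.0 to 339).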

Additional observations from a re-analysis of the deposited data

How the results depend on the processing

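Of the members called lower in N+T against N (2 in the main test), 0 were called with all 12 libraries, 11 with library totals alone (beside 10.6% of all loci, 804 called higher and 1906 lower, against 1392 and 1336 with scaling) and 13 by DESeq2, and 0 to 12 when 1 library was left out. In that comparison DESeq2 called 10.7% of all loci lower, and the fit without P-r1, which gave the 12, called 11.8%. Members called lower in P+T against P numbered 6 by DESeq2, beside 6.91% of all loci. They numbered 0 to 10 when 1 P or P+T library was left out, the 10 without P-r1 (beside 7.04%). Those called higher in P against N numbered 1 by DESeq2 (beside 1.17%). They numbered 0 to 5 when 1 P or P+T library was left out, the 5 without P-r1 (beside 2.2%). Members called higher in P+T against N+T numbered 7 by DESeq2, beside 1.26%. With the replicate number as a block, 6 members were called lower in N+T against N, beside 6.99% of all loci (LHCA5, LHCB1.2, LHCB1.4, LHCB3, LHCB5 and PSAN), and LHCB4.3 had a log2 fold change of 0.015 in P+T against P. Deviations from the group mean correlated at -0.33 to 0.41 for libraries of the same number (median 0.22 over 13 pairs). For different numbers they correlated at -0.49 to 0.63 (median -0.13 over 24 pairs). In N and in N+T the deviations of the 2 libraries mirror each other, so their correlations recur with the opposite sign. The pairs are thus not independent, and the medians cannot decide whether numbers pair the samples. P-r3 and P+T-r3 gave the -0.33, and the labels name no shared batch for a number, so the numbers were not taken to pair the samples. The median log2 fold change of members in N+T against N was -0.78 with all 12 libraries and -0.78 with library totals, and -0.71 to -0.51 when 1 library was left out. That in P+T against P was -0.54 to -0.07, that in P against N 0.10 with 12 libraries and 0.28 to 0.66, that in P+T against N+T 0.48 with 12 libraries and 0.67 to 0.97, and the interaction 0.08 to 0.46, all by leaving out 1 library. Library totals alone moved the median of all loci in N+T against N to -0.17. Several values near 0 changed sign when 1 library was left out, with ranges of -0.45 to 0.40 for LHCB4.3, -0.063 to 0.37 for PSAE2, -0.32 to 0.066 for PSAL, -0.19 to 0.23 for PSBQ1, -0.26 to 0.055 for ATPC1 and -0.20 to 0.16 for PETE2 in P+T against P, and -0.53 to 0.17 for LHCB7 and -0.32 to 0.036 for ATPC1 in N+T against N. Gene body CG differences were called for 2 members with every listed cytosine (LHCA1, LHCB1.2), beside 1087 loci called higher and 1147 lower of 32136. At 50 or more calls they were called for 2 (LHCA1, PSAF), beside 961 higher and 1062 lower of 30597. In the 1 kb before the start 1 was called (PSAL), beside 2.08% of loci higher and 2.06% lower. With the replicate block 0 were called, beside 10 higher and 4 lower of 32021. When 1 plant was left out 0 to 1 were called, beside 295 to 462 loci higher and 269 to 559 lower. The median WT level of the members was 0.62% with every cytosine, 0.75% before the start, and 0.58 to 0.67% without 1 WT plant. The cause of these differences was not tested. N and N+T rest on 2 libraries each, and leaving out 1 of them leaves a lone library that is assumed to vary like the other groups.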

Other observations

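Some other photosynthesis genes, named after their values were seen, stood apart in the same libraries as LHCB2.3. PSBP2, a relative of the oxygen-evolving PSBP, had 12.5 and 14.99 normalised CPM in P-r2 and P-r3, against 1.51 to 6.42 in the other 10 libraries. CPSRP43, which carries antenna proteins to the thylakoid, had 420.3 and 470.8 in P-r2 and P-r3 and 334 in N-r3, against 82.6 to 175 in the other 9 libraries. CCA1, a morning clock gene, had 54.3 normalised CPM in P-r3, against 3.29 to 18.1 in the other 11.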
